A study of Mus musculus with 18 samples.

Results

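Eosinophils were cultured with apoptotic cells (ACs) and either interleukin-4 (IL-4) or interferon-γ (IFN-γ). The change seen with each cytokine was compared gene by gene. The IL-4 change of a gene was the log2 ratio of IL4+ACs to the ACs libraries of the IL-4 experiment, and the IFN-γ change was the log2 ratio of IFNγ+ACs to the ACs libraries of the Type 1 experiment. The quantity examined was the IL-4 change minus the IFN-γ change. Genes entered when their mean normalized count was at least 10 in both experiments, which 9910 of the 54446 genes in the table met. At this edge, Foxd2 was kept with a Type 1 experiment mean of 10.01, and Dennd6b was left out at 9.99.

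All eosinophils came from C57BL/6 mice. In the study's methods they were peritoneal cells of mice carrying an Il5 transgene, which raises eosinophil numbers, purified by removing T and B cells. They were cultured overnight with thymocytes killed by dexamethasone and were recovered on beads against Siglec-F before RNA extraction and CEL-Seq2, a 3′-end tag counting method. Of the 18 libraries of the series, 12 were used for the main comparison, 3 in each of ACs and IL4+ACs of the IL-4 experiment and ACs and IFNγ+ACs of the Type 1 experiment. The 6 libraries of E. coli+ACs and IFNγ+E. coli+ACs, also 3 each, gave a second IFN-γ change that shares no library with the first. Each cytokine was thus measured only in its own experiment and against its own controls, so a difference between the cytokines and a difference in how the experiments responded cannot be told apart.

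IL-4 binds the IL-4 receptor α chain paired with the common γ chain or with IL-13 receptor α1, and signals mainly through STAT6. IFN-γ binds IFNGR1 and IFNGR2, and signals through the kinases JAK1 and JAK2, which leads to the induction of further factors such as IRF1. In macrophages the pathways are known for distinct gene programs: STAT6 drives lectins, chitinase-like proteins and CCL24, and IFN-γ drives guanylate-binding proteins, antigen presentation, CXCL9, CXCL10 and inducible nitric oxide synthase. Eosinophils carry receptors for both cytokines.

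Counting depth was uneven. The third replicates of the IL-4 experiment held 779421 reads (ACs) and 849705 reads (IL4+ACs), whereas the other 10 libraries held 2216917 to 7782072. A count of 3 reads corresponded to 16.08 and 15.42 normalized counts in those shallow libraries and to 1.58 to 6.16 in the others, for counting error only. The eosinophil genes Ccr3 and Siglecf were high in every group, with means of 2974 to 3440 for Ccr3 and 1630 to 3237 for Siglecf. The granule genes Epx and Prg3 were near the detection limit, at 1 to 15 and 0 to 19 reads per library, whereas Prg2, Ear1, Ear2, Ear6 and Rnase2a of the same list were above the minimum in both experiments. Summed over 16 peritoneal macrophage markers, normalized counts spanned 30850 to 45057 in ACs and 24840 to 41808 in IL4+ACs, which overlap, and 22940 to 29851 in ACs and 34668 to 46033 in IFNγ+ACs, which do not. None of these markers was at 0 throughout a group. The same sums over 8 eosinophil markers spanned 5839 to 6913, 5890 to 6627, 6915 to 7316 and 4523 to 5323. In bulk RNA, fewer cells of a type and less RNA per cell cannot be told apart.

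More genes passed the test with IFN-γ than with IL-4. At an adjusted p under 0.05 and at least 1.5-fold, the IL-4 change was higher for 93 genes (0.938% of those tested) and lower for 87 (0.878%), whereas the IFN-γ change was higher for 985 (9.94%) and lower for 937 (9.46%). The IL-4 change exceeded the IFN-γ change for 599 genes (6.04%) and fell below it for 769 (7.76%). With a common upper quartile for all libraries this balance turned, to 713 above and 663 below. The gap between the cytokines also moved with the libraries. Passing genes numbered 180 for IL-4 and 1922 for IFN-γ as reported, 693 and 2345 when libraries were weighted by their spread, 325 and 2423 without the pair of shallow libraries, and 116 and 1820 without IL4+ACs replicate 1. The fit shared 1 estimate of spread over the groups, so the standard error of a change (median 0.25 on the log2 scale) was equal for both cytokines by construction, while the weights of the shallow libraries were 0.211 and 0.23 against 0.418 to 2.901 for the others. Across genes the changes were nearly unrelated, with Pearson's r of 0.028 and Spearman's rho of 0.011 over 9910 genes, which are not independent replicates.

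Both changes passed the threshold for 94 genes, of which 50 moved oppositely and 44 alike. Among those moved oppositely, 14 rose with IL-4 and fell with IFN-γ (0.141% of genes tested) and 36 fell with IL-4 and rose with IFN-γ (0.363%). Of those moved alike, 35 rose with both (0.353%) and 9 fell with both (0.0908%). A gene was assigned to a single cytokine when its change passed, the other did not, and the difference between them passed as well. By this rule 29 genes rose (0.293%) and 32 fell (0.323%) with IL-4 only, and 581 rose (5.86%) and 454 fell (4.58%) with IFN-γ only. With the common upper quartile the last pair was 484 and 555. The words only, and alone in later paragraphs, mean that the other change was not called, not that it was absent. Uncalled IL-4 changes ran from −1.82 to 1.31 among the 581 genes and from −1.12 to 2.23 among the 454. For 25 further genes with an IL-4 change and 793 with an IFN-γ change the difference did not pass, so they could not be placed. Without the pair of shallow libraries the counts were 95 opposite, 72 alike, 118 for IL-4 only and 1241 for IFN-γ only, and 43 of the 50 opposite genes were among the 95. The opposite class was 24 genes without IL4+ACs replicate 1 and 29 without IL4+ACs replicate 2, and 19 of the 50 stayed in it whichever single library was left out. Those were Klk9, Cited2, Clec4a2, Ear6, 9130008F23Rik and Treml2 among genes raised by IL-4, and Marco, Fpr2, Fcgr4, Clec4d, Gstm1, Prdx6, Nipal1, Myof, Gpnmb, Mpeg1, St3gal5, Pid1 and Ifi206 among genes lowered by it. The other 31, which include Mrc1, Gm5150, Lipg, Pim3, Clec4n, Prdx1, Hmox1, Ccrl2 and S100a8, left the class under at least 1 omission.

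**Figure D1:**
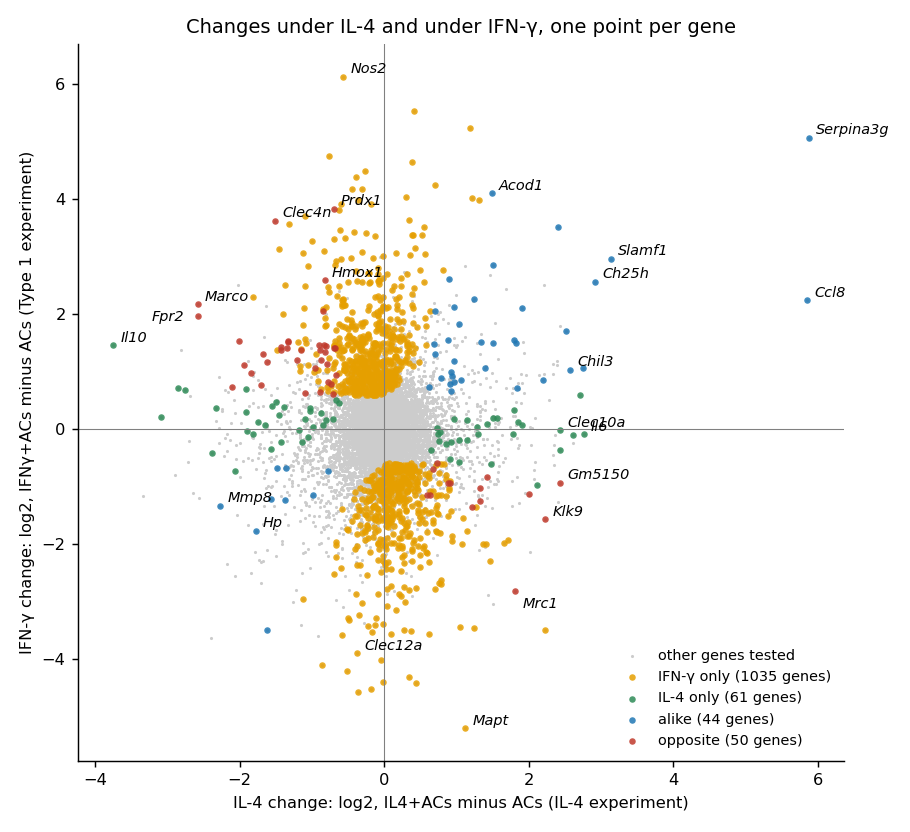
Each point is 1 of the 9910 genes, with its IL-4 change on the horizontal axis and its IFN-γ change on the vertical axis (log2, each against the ACs libraries of the same experiment), coloured by class. The 50 opposite genes (red) lie in the upper left and lower right, the 44 alike genes (blue) in the other quadrants, and the 1035 IFN-γ only genes (orange) form the vertical band.

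The genes raised by IL-4 and lowered by IFN-γ were led by Mrc1, which encodes the mannose receptor CD206, a type 2 macrophage marker (GRCm38 chr2:14229392-14332057, plus strand). Mrc1 measured 46.6, 38.1 and 53.6 normalized counts in ACs and 186, 160 and 144 in IL4+ACs, then 97.6, 134 and 94.6 in the other ACs and 5.28, 32.1 and 16.4 in IFNγ+ACs. The groups did not overlap in either experiment, and every IL-4 library was above, and every IFN-γ library below, its controls. Its IL-4 change was 1.81 ± 0.42 (SE; adjusted p = 0.038) and its IFN-γ change −2.82 ± 0.42 (adjusted p = 1.4e-04), and the difference was 4.63 ± 0.6 (limma, adjusted p = 7.2e-05).

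Klk9, a kallikrein-related serine peptidase gene (chr7:43791891-43796757, plus strand), followed with 17.3, 11.7 and 21.4 in ACs and 64.3, 74.3 and 108 in IL4+ACs. In the Type 1 experiment Klk9 was 54.5, 33.8 and 42.4 in ACs and 17.1, 18.3 and 8.21 in IFNγ+ACs. Its difference was 3.79 ± 0.53 (adjusted p = 1.5e-04), and its controls stood at clearly unlike levels in the experiments. Gm5150, a predicted protein-coding gene on chromosome 3, rose from 46.6, 61.5 and 37.5 to 246, 256 and 283 with IL-4 and fell from 43.1, 39.4 and 29.4 to 25.1, 21.8 and 12.3 with IFN-γ. The IL-4 part of this contrast was the larger, at 2.43 ± 0.29 against −0.93 ± 0.29 for IFN-γ.

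Cited2, a transcriptional co-regulator that binds CBP and p300 proteins (chr10:17723218-17725674, plus strand), started at matched levels. Its controls read 283, 336 and 322 for IL-4 and 276, 313 and 320 for IFN-γ. From there Cited2 rose to 868, 980 and 560 with IL-4 and fell to 156, 112 and 115 with IFN-γ, changes of 1.32 ± 0.19 and −1.25 ± 0.19 whose difference was 2.57 ± 0.27 (adjusted p = 1.0e-05). These near-symmetric shifts left the IL4+ACs libraries above all others and the IFNγ+ACs libraries below all others.

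Clec4a2, an inhibitory C-type lectin receptor (chr6:123106428-123143999, plus strand), had 279, 227 and 139 in ACs, 492, 571 and 499 in IL4+ACs, 315, 332 and 311 in the other ACs and 183, 164 and 125 in IFNγ+ACs. Neither pair of groups overlapped, and the difference was 2.36 ± 0.3 (adjusted p = 6.1e-05). Ear6, a member of the eosinophil-associated ribonuclease family (chr14:51853699-51854643, plus strand), went from 4667, 5441 and 3437 to 8092, 8689 and 8203 with IL-4. With IFN-γ, Ear6 went from 690, 734 and 685 to 413, 336 and 357. Its difference of 1.84 ± 0.2 (adjusted p = 1.3e-05) sat on control levels that were far apart between the experiments, and Ear genes are close paralogs among which tags can be split.

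The other members raised by IL-4 and lowered by IFN-γ were Lipg, endothelial lipase, with a difference of 3.13 ± 0.55, Gm44005, 2.57 ± 0.36, 9130008F23Rik, 2.26 ± 0.29, and Pim3, a serine/threonine kinase, 1.82 ± 0.29. Mgll, which encodes the monoacylglycerol lipase that ends endocannabinoid signaling, and Bcl2a1a, an anti-apoptotic BCL2 relative with near-identical copies, had differences of 1.78 ± 0.19 and 1.74 ± 0.18. Treml2 and Fcgr2b closed the class at 1.36 ± 0.15 and 1.32 ± 0.14. Fcgr2b encodes the inhibitory IgG receptor. Over all 14 members the IL-4 change ran from 0.6 to 2.43 (median 1.27) and the IFN-γ change from −2.82 to −0.59 (median −1.08).

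**Figure D2:**
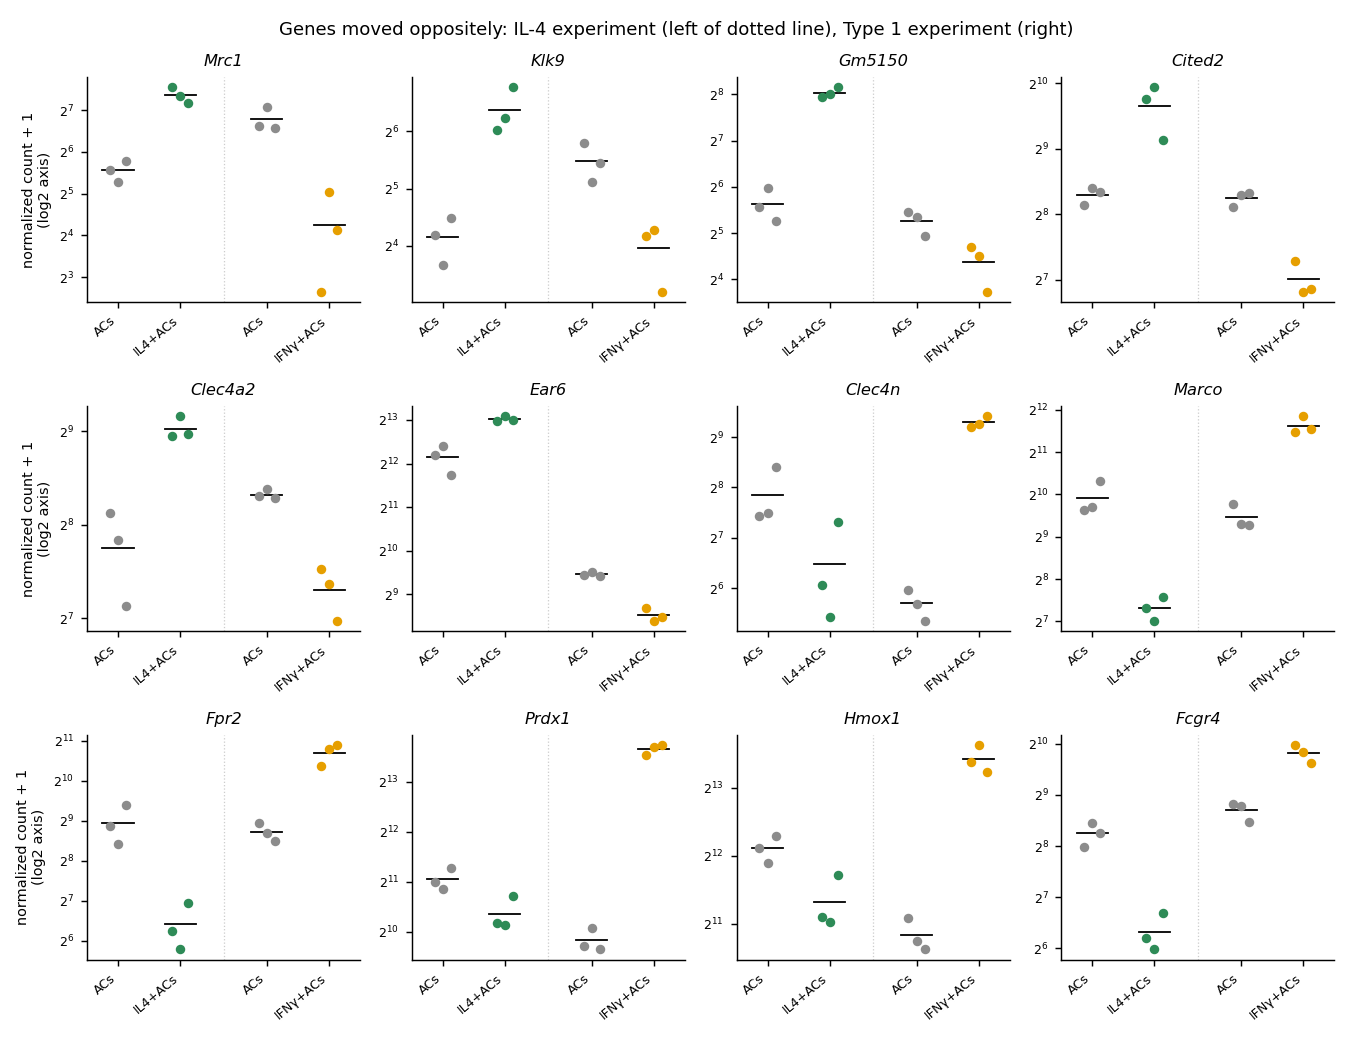
Normalized counts plus 1 (log2 axis) of 12 oppositely moved genes, with 1 point per library, 3 libraries per group and a bar at the group mean. For Mrc1, Klk9, Gm5150, Cited2, Clec4a2 and Ear6 the IL4+ACs points lie above their controls and the IFNγ+ACs points below theirs, and for Clec4n, Marco, Fpr2, Prdx1, Hmox1 and Fcgr4 the order is turned around.

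Genes lowered by IL-4 and raised by IFN-γ included several receptors for microbes and immune complexes. Clec4n, which encodes the fungal-sensing lectin Dectin-2 (chr6:123229843-123247021, plus strand), had the widest difference of the class. It was 172, 179 and 338 in ACs and 65.5, 42.1 and 159 in IL4+ACs, so the groups came close, whereas with IFN-γ it climbed from 61.8, 50.7 and 40 to 590, 616 and 681. Its changes were −1.51 ± 0.37 (adjusted p = 0.047) and 3.62 ± 0.37 (adjusted p = 2.8e-06), and their difference −5.13 ± 0.52 (adjusted p = 6.2e-06).

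Marco, a class A scavenger receptor for bacteria and particles (chr1:120474538-120505024, minus strand), was strongly moved on both sides. Marco read 795, 833 and 1265 in ACs and 159, 129 and 190 in IL4+ACs, and 873, 628 and 620 in the Type 1 ACs and 2824, 3676 and 2965 in IFNγ+ACs. From similar control levels the changes were −2.58 ± 0.2 and 2.17 ± 0.2, and the difference was −4.74 ± 0.28 (adjusted p = 2.8e-08). Fpr2, a formyl peptide receptor that guides phagocytes to bacterial products (chr17:17887824-17893952, plus strand), behaved alike, going from 470, 343 and 676 to 75.3, 54.3 and 123 with IL-4 and from 492, 414 and 363 to 1316, 1782 and 1900 with IFN-γ. Its difference was −4.54 ± 0.38 (adjusted p = 1.2e-06).

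Fcgr4, an activating IgG receptor (chr1:171018920-171029761, plus strand), measured 253, 350 and 306 in ACs, 73, 62.2 and 103 in IL4+ACs, 453, 439 and 353 in the other ACs and 1004, 917 and 792 in IFNγ+ACs. This was the reverse of the inhibitory IgG receptor Fcgr2b, and the Fcgr4 difference was −3.06 ± 0.27 (adjusted p = 1.6e-06). Clec4d, a lectin of the same chromosome 6 cluster as Clec4n, fell from 751, 1043 and 944 to 190, 194 and 247 with IL-4 and rose from 782, 755 and 615 to 1181, 1312 and 1088 with IFN-γ. Ccrl2, an atypical chemokine receptor, had changes of −0.85 ± 0.17 and 2.06 ± 0.17.

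Enzymes that handle peroxides, heme and electrophiles were also found in this class. Prdx1, a peroxiredoxin (chr4:116685544-116700822, plus strand), read 2037, 1850 and 2482 in ACs and 1151, 1133 and 1676 in IL4+ACs, and 847, 1087 and 803 in the Type 1 ACs and 11854, 13306 and 13636 in IFNγ+ACs. The IFN-γ change of Prdx1, 3.83 ± 0.16, far exceeded its IL-4 change of −0.7 ± 0.16 (adjusted p = 0.035). Hmox1, heme oxygenase 1 (chr8:75093621-75100589, plus strand), fell from 4446, 3805 and 5013 to 2184, 2080 and 3367 and rose from 2168, 1722 and 1576 to 10598, 12637 and 9577. The IL4+ACs libraries of Hmox1 were below their controls but still above most of the Type 1 controls. Gstm1, a glutathione transferase, had changes of −1.67 ± 0.23 and 1.31 ± 0.23, Prdx6 of −0.81 and 1.44, and Slc48a1, a heme transporter, of −0.68 and 1.41. No list of such genes was among those used, so these are named as single members.

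Nipal1, a magnesium transporter relative, and Myof, a membrane-repair protein of the ferlin family, had differences of −3.55 ± 0.36 and −2.86 ± 0.3. Among the remaining members were S100a8, the calprotectin subunit abundant in neutrophils (−2.86 ± 0.46), Gpnmb, a glycoprotein of lipid-laden macrophages (−2.82 ± 0.25), Mmp27, a metalloproteinase (−2.81 ± 0.44), Mpeg1, a pore-forming protein of phagosomes (−2.28 ± 0.2), Lipa, lysosomal acid lipase (−2.29 ± 0.27), and Ifit3, an interferon-induced RNA-binding complex member (−1.74 ± 0.29). Smox, St3gal5, Pid1, Clcn7, Rab7b, Dapk1, Ifi206, Fam102b, Cyb5a, Dock10, Tmem51, Bst1, Def8, Rras, Rcan1, Man2a1 and Ergic1 completed the class. Over the 36 members the IL-4 change ran from −2.58 to −0.66 (median −1.03) and the IFN-γ change from 0.61 to 3.83 (median 1.38).

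For 9 of the 50 opposite genes the ACs means differed at least 2-fold between the experiments (18%), against 11.3% of all genes tested. The macrophage marker list named above included no opposite gene. With 50 opposite genes among all 9910, a list of 16 would rarely hold one. The opposite genes Mrc1, Marco and Gpnmb, also expressed by macrophages, are not on it. Medians over the 16 listed members were −0.22 for IL-4 and 0.31 for IFN-γ. That list had 1 member higher and 1 lower with IL-4, and 5 higher and 1 lower with IFN-γ. The part of macrophages in these changes was not tested. Of 10 neutrophil markers only 3 were measured above the minimum, and S100a8 was one of them.

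The IFN-γ side of these classes was then read in the libraries that also received E. coli, which played no part in choosing the genes. There the IFN-γ change, IFNγ+E. coli+ACs against E. coli+ACs, passed for 916 of 9522 genes upwards (9.62%) and 790 downwards (8.3%). Of the 13 genes raised by IL-4 and lowered by IFN-γ that could be measured there, 7 fell again with IFN-γ, none rose, and 12 had the same sign. Among the 36 genes with the opposite pattern 16 rose, 3 fell, and 31 had the same sign. Over all 9522 genes measured there, 6401 had the same sign, whether called or not. For comparison, 320 of 578 IFN-γ only genes rose again and 4 fell. Without E. coli+ACs replicate 3 the number of IFN-γ calls in this arm was 1115 in place of 1706.

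Prdx1 rose again by 1.89 (adjusted p = 3.6e-07), Marco by 1.3 (adjusted p = 5.4e-05), Clec4n by 1.24 (adjusted p = 1.8e-04), Hmox1 by 1.11 (adjusted p = 8.1e-05) and Fcgr4 by 0.89 (adjusted p = 0.0018). Fpr2 rose by 0.62 (adjusted p = 0.011). Klk9 changed by −2.94 (adjusted p = 0.0017), Bcl2a1a by −1.33 (adjusted p = 7.9e-06) and Ear6 by −1.07 (adjusted p = 1.1e-04). In contrast, Clec4d had a change of 0.06 (adjusted p = 0.8) and Gm5150 of 0.12 (adjusted p = 0.88). Mrc1 was too low in these libraries to be tested.

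**Figure D3:**
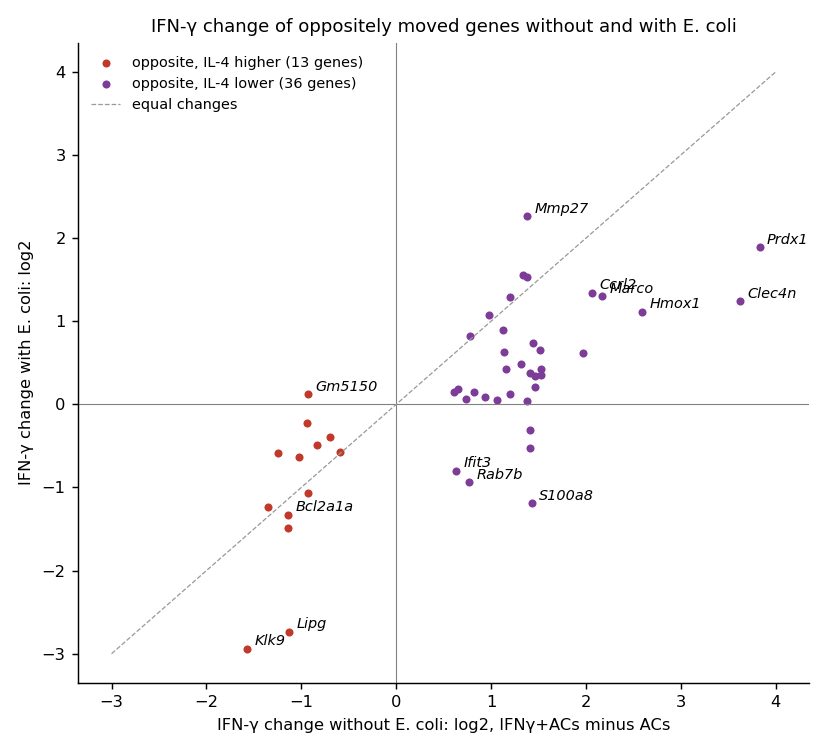
IFN-γ change without E. coli (horizontal axis, log2) and with E. coli (vertical axis, log2) for the 49 oppositely moved genes measured in both, 1 point per gene, with a dashed line of equal changes. Most of the 36 genes lowered by IL-4 lie below the line on the right, at a median of 0.42 with E. coli against 1.38 without. S100a8, Rab7b and Ifit3 are among those below 0 with E. coli.

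Genes raised by both cytokines were led by Serpina3g, an intracellular serine protease inhibitor in a cluster of close paralogs, among which tags can be split (chr12:104236245-104241939, plus strand). Serpina3g was nearly silent in ACs, at 0.75, 2.34 and 0 normalized counts in the IL-4 experiment, which were 1, 3 and 0 reads, and at 4.88, 2.82 and 5.71 in the Type 1 experiment. It reached 109, 90.6 and 118 with IL-4 and 170, 206 and 158 with IFN-γ. The fitted changes of 5.88 ± 0.45 and 5.06 ± 0.45 depend on the added count of 1 at such low controls, and the difference of 0.82 had a 95% interval of −0.53 to 2.17. Slamf1, the co-receptor CD150, went from 18.8, 20.2 and 16.1 to 168, 143 and 200 and from 17.1, 11.3 and 13.1 to 107, 124 and 109. Its changes of 3.14 ± 0.25 and 2.96 ± 0.25 differed by 0.18, with an interval of −0.58 to 0.93.

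Ch25h, which makes 25-hydroxycholesterol from cholesterol, rose from 18.1, 11.7 and 21.4 to 133, 105 and 164 with IL-4 and from 12.2, 13.1 and 13.1 to 60.7, 98.6 and 86.2 with IFN-γ. Ccl2, the monocyte chemoattractant, rose by 1.83 ± 0.2 and 1.5 ± 0.2, a difference of 0.33 with an interval of −0.27 to 0.94. AA467197, on chromosome 2, rose by 2.4 ± 0.28 and 3.51 ± 0.28. For these genes the difference did not pass, which does not show that the responses were equal. The changes of AA467197 lay further apart than those of Ccl2. Where an interval is given, it bounds how far apart the responses could be.

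For 14 of the 44 genes moved alike the size of the response differed between the cytokines. Ccl8, a chemokine of the monocyte chemoattractant group, rose from 11.3, 6.23 and 0 to 260, 292 and 221 with IL-4 but only from 10.6, 11.3 and 22 to 60.7, 67.6 and 80 with IFN-γ, a difference of 3.61 ± 0.91 (adjusted p = 0.014). Chil3, the chitinase-like protein Ym1, went from 5825, 7175 and 9431 to 40128, 34705 and 59274 with IL-4 and from 2852, 2579 and 2189 to 4898, 5794 and 4866 with IFN-γ. The Chil3 difference was 1.54 ± 0.27 (adjusted p = 0.001). Acod1, the enzyme that makes itaconate, leaned the other way, from 165, 167 and 214 to 472, 432 and 653 with IL-4 and from 61, 60.1 and 51.4 to 844, 1004 and 1172 with IFN-γ, a difference of −2.61 ± 0.26 (adjusted p = 5.3e-06). Il1rn, the interleukin-1 receptor antagonist, had changes of 0.69 and 1.48 and a difference of −0.79 ± 0.19 (adjusted p = 0.0092).

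The 9 genes lowered by both were led by Hp, the hemoglobin scavenger haptoglobin, at 441, 538 and 386 falling to 155, 147 and 97.7 with IL-4 and at 700, 741 and 619 falling to 239, 209 and 160 with IFN-γ. Its changes of −1.78 ± 0.2 and −1.77 ± 0.2 differed by −0.01, with an interval of −0.6 to 0.59. Mmp8, the neutrophil collagenase, changed by −2.27 ± 0.17 and −1.33 ± 0.17, and Ifitm6 by −1.62 ± 0.32 and −3.49 ± 0.32. Clec4a1, Tmem176b, Slc37a2, Rassf4, Vsig4 and F13a1 were the other members. Vsig4, a complement receptor, and Timd4, a phosphatidylserine receptor raised by both at 0.93 and 1.0, are on the macrophage marker list. Of the 44 genes moved alike, 18 had ACs means at least 2-fold apart between the experiments (40.9%).

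**Figure D4:**
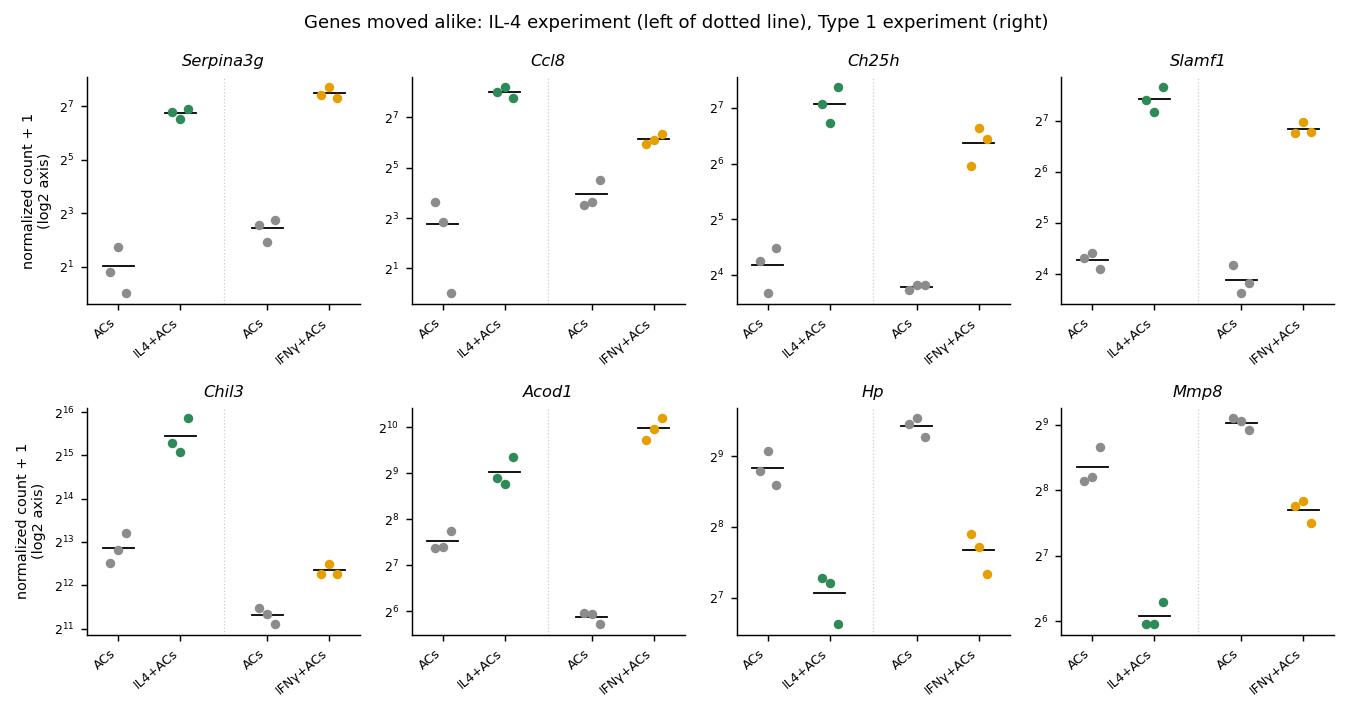
Normalized counts plus 1 (log2 axis) of 6 genes raised and 2 lowered by both cytokines, with 1 point per library, 3 libraries per group and a bar at the group mean. Both stimulated groups lie above their controls for Serpina3g, Ccl8, Ch25h, Slamf1, Chil3 and Acod1 and below them for Hp and Mmp8, and the step is larger with IL-4 for Ccl8 and Chil3 and larger with IFN-γ for Acod1.

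Promoter windows of 300 bases, from 250 before to 50 after an annotated start (RefSeq, GRCm38.p6), were available for 7663 of the tested genes, 9789 windows in all. They were searched on both strands for the letters TTCNNNGAA, a spacing shared by sites of several STAT factors, TTCNNNNGAA, the wider spacing that STAT6 accepts, and GAAANNGAAA, the core of interferon-stimulated response elements. Matches to different patterns may overlap. The first was present in 1 of 12 windows of genes raised by IL-4 and lowered by IFN-γ (8.33%), 3 of 38 of the reverse class (7.89%), 3 of 34 of genes raised by both (8.82%), 2 of 29 of genes raised by IL-4 only (6.9%) and 44 of 606 raised by IFN-γ only (7.26%), against 6.62% of all windows. The second was in none, 3 (7.89%), 5 (14.7%), 3 (10.3%) and 31 (5.12%) of the same windows, against 5.52% of all. Windows of a gene can overlap, and 2 of the 5 windows of genes raised by both are Il1rn windows that share 1 site. The third was in 1 (8.33%), 4 (10.5%), 1 (2.94%), none and 37 (6.11%), against 3.48% of all. These are descriptions of letters, not of binding.

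Windows of 6 genes moved by both cytokines, picked from those that hold such a match, are printed 5′ to 3′ on the strand of the gene. The match is in capitals. Other genes moved by both, such as Clec4a2 and Cd53, also had a match, and a second window of Gstm1 had none. Fpr2, Fcgr4 and Gstm1 fell with IL-4 and rose with IFN-γ, and Serpina3g, Slamf1 and Chil3 rose with both.
Fpr2 (GRCm38.p6, chr17:17887574-17887873, plus strand): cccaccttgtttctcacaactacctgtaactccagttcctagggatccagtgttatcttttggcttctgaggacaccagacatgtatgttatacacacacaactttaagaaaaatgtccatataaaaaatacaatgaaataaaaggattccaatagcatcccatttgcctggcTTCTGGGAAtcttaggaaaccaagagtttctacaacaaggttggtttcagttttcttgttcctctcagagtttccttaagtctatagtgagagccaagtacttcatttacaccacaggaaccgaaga
Fcgr4 (GRCm38.p6, chr1:171018676-171018975, plus strand): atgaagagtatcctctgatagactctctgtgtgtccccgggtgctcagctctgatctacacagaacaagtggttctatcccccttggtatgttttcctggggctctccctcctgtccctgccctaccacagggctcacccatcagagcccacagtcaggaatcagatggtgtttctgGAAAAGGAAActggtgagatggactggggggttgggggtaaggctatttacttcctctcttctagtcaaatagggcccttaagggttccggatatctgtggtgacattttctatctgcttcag
Gstm1 (GRCm38.p6, chr3:108017924-108018223, minus strand): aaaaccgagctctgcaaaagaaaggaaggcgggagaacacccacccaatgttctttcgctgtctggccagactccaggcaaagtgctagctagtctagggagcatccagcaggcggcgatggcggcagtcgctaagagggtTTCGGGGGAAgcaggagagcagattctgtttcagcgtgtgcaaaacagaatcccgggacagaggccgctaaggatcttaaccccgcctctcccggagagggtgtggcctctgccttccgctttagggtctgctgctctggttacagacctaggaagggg
Serpina3g (GRCm38.p6, chr12:104235897-104236196, plus strand): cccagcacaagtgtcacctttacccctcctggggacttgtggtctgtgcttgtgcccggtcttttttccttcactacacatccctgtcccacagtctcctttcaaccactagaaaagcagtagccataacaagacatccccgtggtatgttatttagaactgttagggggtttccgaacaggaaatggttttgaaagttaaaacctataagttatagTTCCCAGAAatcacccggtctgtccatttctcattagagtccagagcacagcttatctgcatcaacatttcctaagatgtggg
Slamf1 (GRCm38.p6, chr1:171766882-171767181, plus strand): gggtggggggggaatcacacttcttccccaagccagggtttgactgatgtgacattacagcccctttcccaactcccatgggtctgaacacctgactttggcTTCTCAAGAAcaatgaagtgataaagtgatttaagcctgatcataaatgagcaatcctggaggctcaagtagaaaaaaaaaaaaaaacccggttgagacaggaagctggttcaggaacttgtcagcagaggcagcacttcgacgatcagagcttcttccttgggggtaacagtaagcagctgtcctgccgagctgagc
Chil3 (GRCm38.p6, chr3:106167515-106167814, minus strand): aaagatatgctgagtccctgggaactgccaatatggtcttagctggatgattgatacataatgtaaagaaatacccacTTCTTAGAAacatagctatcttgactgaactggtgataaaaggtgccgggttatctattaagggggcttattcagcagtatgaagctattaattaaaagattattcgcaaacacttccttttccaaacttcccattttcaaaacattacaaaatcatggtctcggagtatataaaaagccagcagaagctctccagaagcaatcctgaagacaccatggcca

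The matches begin at position −77 in Fpr2, −73 in Fcgr4, −109 in Gstm1, −33 in Serpina3g, −148 in Slamf1 and −172 in Chil3, counted from the annotated start.

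IL-4 alone raised Clec10a, a galactose-binding macrophage lectin (chr11:70156197-70170834, plus strand), from 85.7, 96.5 and 118 to 533, 512 and 591. With IFN-γ, Clec10a stood at 73.9, 73.4 and 73.9 against 71.6, 97.6 and 59.5, so those groups overlapped, and the difference was 2.46 ± 0.28 (adjusted p = 1.8e-05). Il6, an inflammatory cytokine, went from 30.1, 27.2 and 64.3 to 222, 202 and 396 with IL-4 and was 27.7, 34.4 and 30.8 with IFN-γ against 29.3, 35.7 and 34.2. Ear2, an eosinophil ribonuclease, had an IL-4 change of 2.12 ± 0.39 and an IFN-γ change of −0.98 ± 0.39 (adjusted p = 0.079). Ccl7, a monocyte chemoattractant, had an IL-4 change of 2.71 ± 0.3 and an IFN-γ change of 0.59 ± 0.3 (adjusted p = 0.18). The noncoding RNA B230208H11Rik was the fifth named member. Retnla, the type 2 effector RELMα, was already at 54172, 57583 and 62246 in ACs and rose to 90702, 96790 and 101282 with IL-4 only.

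Among genes lowered by IL-4 only, Il10, an anti-inflammatory cytokine, was at 47.4, 38.1 and 53.6 in ACs and at 6.37, 4.74 and 0 in IL4+ACs, the last being a shallow library. In the Type 1 experiment Il10 was 48, 22.5 and 25.3 in ACs and 113, 71.1 and 75.9 in IFNγ+ACs. The groups did not overlap there, but the change of 1.46 ± 0.59 did not pass (adjusted p = 0.087), and the difference was −5.21 ± 0.83 (adjusted p = 4.4e-04). Lcn2, the siderophore-binding lipocalin, fell from 1641, 1801 and 1930 to 188, 180 and 272, and Fpr1, the formyl peptide receptor next to Fpr2, from 311, 286 and 440 to 57.4, 58.5 and 87.4. The IFN-γ changes of Lcn2 and Fpr1 were 0.21 (adjusted p = 0.55) and 0.37 (adjusted p = 0.32). Cgnl1 and Ltbp1 completed the named genes, both with an IL-4 change of −1.91. The class also held Cebpa, a myeloid transcription factor, at −1.65.

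IFN-γ alone raised Nos2, inducible nitric oxide synthase (chr11:78920787-78960254, plus strand), from 73.2, 99.5 and 57.1 to 5408, 6298 and 4383. With IL-4 it was 105, 97.5 and 272 against 192, 257 and 188, and the difference of −6.7 ± 0.44 (adjusted p = 1.1e-07) was the most negative of all genes placed with a single cytokine. Calhm6, a calcium homeostasis modulator, rose from 3.25, 7.51 and 4.89 to 226, 300 and 308. Adm, the vasodilator adrenomedullin, rose from 0, 0.94 and 0 to 26.4, 45.9 and 28.7, but its ACs libraries in the IL-4 experiment already held 250, 308 and 241. Gdf15, a stress-induced growth factor, and Plpp3, a lipid phosphatase, had IFN-γ changes of 3.57 ± 0.49 and 3.71 ± 0.52. Atf3, a stress-induced repressor, and Vegfa, an angiogenic factor, rose by 4.65 and 3.33.

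The genes lowered by IFN-γ alone included Mapt, the microtubule-binding protein tau, from 182, 221 and 210 to 7.91, 18.3 and 0. In the IL-4 experiment Mapt had 186, 140 and 18 reads in ACs and 434, 450 and 50 reads in IL4+ACs. The latter were 251, 237 and 257 normalized counts. Scaled for depth, every IL4+ACs library lay above its controls, but the IL-4 change of Mapt did not pass. Btnl9, a butyrophilin-like protein, fell from 117, 134 and 121 to 5.28, 3.44 and 6.16, and Cbx8, a Polycomb subunit, from 342, 317 and 359 to 21.1, 11.5 and 14.4. Clec12a, an inhibitory lectin that recognizes dead cells, fell from 908, 997 and 914 to 62, 69.9 and 55.4, while in IL4+ACs it was 472, 491 and 442 against 679, 543 and 595. Its IL-4 change of −0.37 did not pass (adjusted p = 0.23). Abcg3 and Gm38359 were the remaining named genes, with IFN-γ changes of −4.31 and −3.45.

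STAT6 and type 2 activation genes numbered 48, of which 32 were measured above the minimum. With IL-4, 16 of them rose and none fell, and with IFN-γ 8 rose and 5 fell. Their median changes were 1.02 and 0.26, against −0.01 for all genes under either cytokine, and the difference favoured IL-4 for 14 and IFN-γ for 4. Arg1, arginase 1 and a usual type 2 marker, was among the latter: it rose from 6993, 7065 and 6090 to 24549, 30994 and 28961 with IFN-γ, whereas its IL-4 change of 0.63 did not pass (adjusted p = 0.1). IFN-γ response genes showed the reverse, with 44 of 58 measured members raised and none lowered by IFN-γ, 2 raised and 1 lowered by IL-4, and medians of 1.51 and 0.06. The members raised by IL-4 were Serpina3g and Acod1, and the member lowered was Ifit3. Both lists hold genes chosen for their known response to these cytokines.

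Antigen presentation genes rose mostly with IFN-γ, and none passed with IL-4. Of 8 measured MHC class II genes 7 rose with IFN-γ and had a called difference, H2-Oa being the exception, including H2-Ab1, a class II β chain, at 2.53, and Cd74, the invariant chain, at 1.88. Of 20 class I and immunoproteasome genes 15 rose with IFN-γ, and 12 of these also had a called difference, among them Nlrc5, the class I transactivator, at 1.8 for IFN-γ and 0.01 for IL-4. For H2-T22, Psmb10 and Erap1 the difference did not pass, H2-Q4, H2-Q6 and H2-M3 passed no test, and H2-K1 and H2-D1 passed for the difference alone, a call lost with the common upper quartile. H2-Ab1 stood at a mean of 2228 in the ACs of the IL-4 experiment and 450 in those of the Type 1 experiment.

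The counts of the lists that follow stand beside those over all genes tested, of which 0.938% rose and 0.878% fell with IL-4 and 9.94% rose and 9.46% fell with IFN-γ. Of 28 measured receptor, JAK, STAT and feedback genes, 2 rose with IL-4, and 6 rose and 2 fell with IFN-γ, the latter near the share over all genes. Among the SOCS family feedback inhibitors, Cish and Socs2 rose with IL-4 only, by 1.03 and 1.04, and Socs1 with IFN-γ only, by 1.48, while Socs3, Socs4, Socs5, Socs6 and Socs7 passed no test. Il4ra, the IL-4 receptor α chain, did not pass with either (−0.14 and 0.21), whereas Ifngr1 fell by 0.6 with IFN-γ (adjusted p = 0.045) and had an IL-4 change of 0.83 (adjusted p = 0.051).

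Of 21 measured chemokine ligands 7 rose and none fell with IL-4, and 8 rose and 4 fell with IFN-γ. Ccl5, a T cell attractant, and Cxcl10, a ligand of CXCR3, rose with IFN-γ only (1.58 and 4.18), and Ccl6 and Ccl9 fell with it (−0.67 and −0.63). Ccl24, eotaxin-2, rose with both but more with IL-4 (1.84 and 0.71, adjusted p of the difference = 0.0076). Among 20 cytokines 3 rose and 1 fell with IL-4, and 7 rose and 1 fell with IFN-γ, a share of falling genes below that over all genes. Among 21 lectins and scavenger receptors 5 rose and 5 fell with IL-4, and 4 rose and 6 fell with IFN-γ, and 5 of them were opposite, namely Mrc1, Clec4a2, Clec4d, Clec4n and Marco, against 50 of all 9910 genes. The list was drawn up with some of these genes in view.

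Of 12 enzymes of arginine, nitric oxide, itaconate and tryptophan use, 7 rose with IFN-γ and 2 with IL-4. Slc7a2, a cationic amino acid transporter, rose with both (0.9 with IL-4, 2.61 with IFN-γ). Of 27 cholesterol and lipid genes 2 rose with IL-4, and 9 rose and 3 fell with IFN-γ, the last including Alox15, the 15-lipoxygenase of eosinophils, at −0.79. The share that fell is close to that over all genes. Among 24 eosinophil granule and lineage genes 3 rose and 1 fell with IL-4, and 1 rose and 8 fell with IFN-γ. With IFN-γ, Siglecf changed by −0.99 and Il5ra, a chain of the interleukin-5 receptor, by −0.71, and neither passed with IL-4. Of 37 activation transcription factors 2 rose with IL-4, and 9 rose and 6 fell with IFN-γ, Egr1, an immediate-early gene, falling by 3.58.

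**Figure D5:**
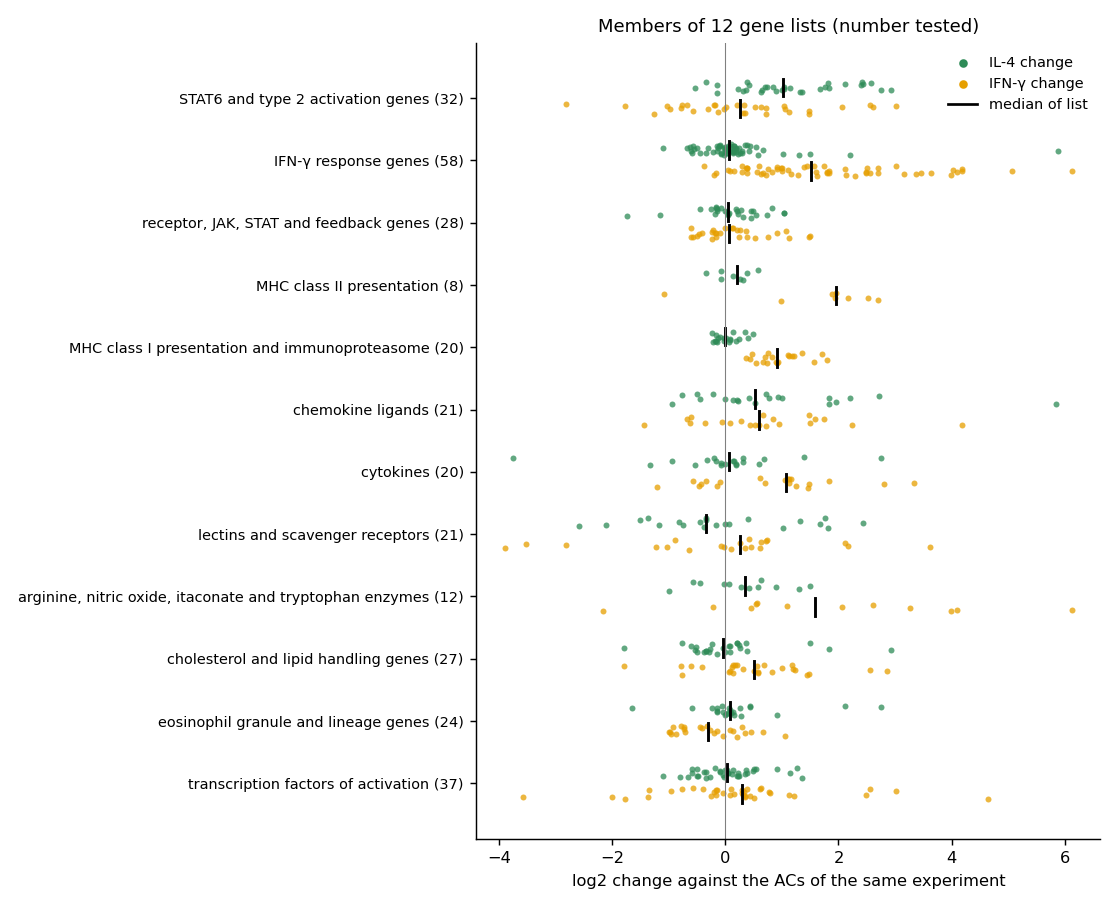
Log2 changes of the measured members of 12 gene lists (number measured in brackets), with 1 green point per gene for IL-4, 1 orange point for IFN-γ and a black bar at each list median. The IL-4 median lies to the right of the IFN-γ median for STAT6 and type 2 activation genes (1.02 and 0.26) and far to the left of it for IFN-γ response genes (0.06 and 1.51) and MHC class II presentation (0.2 and 1.95).

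Some list genes lay below the minimum in 1 experiment and were therefore not tested. Among them, Pdcd1lg2 and Ccl17 were above their controls with both cytokines. Cd209e, a relative of the lectin DC-SIGN, had 148, 81.7 and 206 normalized counts in IL4+ACs, 1.5, 0 and 0 in its ACs, and 0 in all 6 libraries of ACs and IFNγ+ACs of the Type 1 experiment. Chil4, a chitinase-like protein, had 217, 203 and 375 in IL4+ACs against 9.78, 2.34 and 10.7, with at most 3.44 in either Type 1 group. Pdcd1lg2, the PD-1 ligand PD-L2, was 104, 123 and 149 against 6.77, 10.9 and 0 with IL-4, and 18.5, 8.02 and 12.3 against 3.25, 3.75 and 0 with IFN-γ. Conversely, Cxcl9, a CXCR3 ligand, was 2476, 3268 and 2723 in IFNγ+ACs against 13.8, 23.5 and 7.34, with at most 3.11 in either IL-4 experiment group. Ciita, the class II transactivator, was 23.7, 37.8 and 30.8 in IFNγ+ACs against 0, 0 and 3.26. In the IL-4 experiment Ciita was 2.9, 4.74 and 10.3 in IL4+ACs against 6.77, 12.5 and 10.7. Ccl17, a type 2 chemokine, was 16.2, 15.3 and 10.3 in IL4+ACs against 7.52, 3.11 and 0, and 56.7, 61.9 and 53.4 in IFNγ+ACs against 5.69, 8.45 and 11.4. In each of these named contrasts other than Ciita with IL-4, every stimulated library lay above its controls. The Ccl17 value of 10.3, like the third Ciita value of each IL-4 experiment group, is under the 3-read limit of its shallow library.

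Markers of other cell types were also detected. The macrophage sums given above were higher than the eosinophil sums in every group, but they cover 16 genes against 8. Epx and Prg3, among the 8, were near the detection limit, so these sums do not compare cell numbers. The study's methods report high eosinophil purity by flow cytometry after the culture. The 8 B cell markers summed to 1252 to 1450 in the Type 1 ACs and 197 to 263 in IFNγ+ACs, and to 535 to 767 and 510 to 971 in the ACs and IL4+ACs of the IL-4 experiment. Both measured B cell genes, Ighm and Igkc, fell with IFN-γ (−3.08 and −2.12). The 18 thymocyte markers, which would mark the engulfed or attached ACs, summed to 88 to 174, 133 to 231, 299 to 391 and 223 to 319 in ACs, IL4+ACs, Type 1 ACs and IFNγ+ACs, with Rag2 at 0 in both ACs groups. The 10 neutrophil markers summed, in the same order, to 3549 to 4773, 3826 to 4215, 1609 to 1902 and 2023 to 2536, with Elane and Mpo at 0 in IFNγ+ACs. The 7 mast cell markers summed to 26.5 to 31.6, 11.6 to 20.6, 5.64 to 20.3 and 26.7 to 67.6, with Ms4a2 at 0 in both Type 1 groups. Their sums were higher in IFNγ+ACs than in the Type 1 ACs without overlap, and lower in IL4+ACs than in its ACs. No mast cell marker reached the minimum, so none was tested, and the sums of the shallow libraries rest on few reads. With IFN-γ the rise lay mainly in Cpa3 and Cma1, and Kit, Fcer1a and Ms4a2 did not rise. The part of these cells in the results was not tested.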

How the data were processed

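The authors deposited 1 table of normalized counts for 54446 mouse genes in 18 libraries. Per the submitters' processing notes, reads were trimmed (cutadapt 1.10), aligned to GRCm38 with TopHat2 2.1.0, counted with HTSeq 0.6.1 and scaled with DESeq2 1.26.0. The deposited signal values were whole reads divided by a size factor: in every library 100% of values came out as whole reads within 0.1, so counts could be recovered. Symbols and coordinates were taken from GENCODE M21, which matched 54409 identifiers.

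Values were tested as log2(normalized count + 1) with limma 3.58.1 (R 4.3.3), trend on, over 12 libraries in 4 groups sharing 1 estimate of spread, with Benjamini-Hochberg adjustment over 9910 genes, and all fold changes are on this scale, which understates changes of low genes. Calls needed an adjusted p under 0.05 and 1.5-fold. The study's methods call its replicates biological, and the legend of its heat maps of ACs against unstimulated eosinophils assigns every lane to a separate mouse. GEO's labels do not say which mouse each library came from. The p-values therefore test group differences against the spread between these samples. Named genes were up to 10 opposite genes per direction by size of difference and 5 per direction of each other class, among genes with a group mean of at least 50 and groups that did not overlap, plus list genes. An item left out of 2 of these lists is not reported here. The members and lists were chosen with earlier results of these data known. The test was run on simulated data: of 200 genes changed 4-fold under IL-4 only, among 9910 genes, 74.5% were called for the difference, with 3 false calls. The simulation had no IFN-γ change and 1 spread per gene for all libraries, whereas the library weights of the data ran from 0.211 to 2.901. A 4-fold change also exceeded the median IL-4 change of every class. These rates therefore need not hold for the data.

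Alternatives were a pseudocount of 5, no filter, a minimum of 50, scaling to 1 upper quartile, library weights, a block for replicate number, recovered reads tested with DESeq2 1.42.0 or edgeR 4.0.16, no fold threshold, each experiment alone and each library left out. Omission of both shallow libraries together, and the test of the IFN-γ change with against without E. coli, were added after seeing the data. Figures were drawn with matplotlib 3.10.9.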

Additional observations from a re-analysis of the deposited data

Results flagged for a closer look

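For 7 genes moved by both cytokines, IFN-γ had called changes of unlike sign without and with E. coli, and the test of this difference itself (limma over the 12 libraries of the Type 1 experiment) passed. S100a8 had IFN-γ changes of 1.43 and −1.19 without and with E. coli, a difference of −2.62. Rab7b had 0.77 and −0.94 (−1.71) and Ifit3 0.63 and −0.8 (−1.44), so the opposite class rests for these on the libraries without E. coli. Among genes moved alike, Ch25h went from 2.56 to −1.26 (−3.82) and Ccl4 from 0.66 to −1.13 (−1.79). Mmp8 went from −1.33 to 1.61 (2.94) and Rassf4 from −0.72 to 0.79 (1.51). IL-4 was not combined with E. coli.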

How the results depend on the processing

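The difference of all 50 opposite genes kept its direction and passed under every alternative in which the gene was measured, but class sizes moved. Array weights gave 2319 genes with a difference (1368 as reported), 693 with an IL-4 change (180), 177 opposite (50), 130 alike (44) and 225 IL-4 only (61), with 47 of the 50 opposite genes shared. DESeq2 gave 282, 81 and 70 for the IL-4 change, opposite and alike, with 49 of the 50 shared. Without both shallow libraries there were 325 genes with an IL-4 change, 95 opposite, 72 alike and 118 IL-4 only. With each experiment fitted alone, the IL-4 change passed for 105 genes. Leaving out 1 library gave 998 to 1512 genes for the difference, 116 to 210 for IL-4, 1450 to 2123 for IFN-γ, 24 to 70 opposite, 30 to 57 alike, 44 to 73 IL-4 only, 761 to 1117 IFN-γ only and 1115 to 2082 for IFN-γ with E. coli. The IL-4 minimum of 116 came without IL4+ACs replicate 1. With a common upper quartile, IFN-γ raised 810 and lowered 1131 genes (985 and 937 as reported), and 10 of 224 named or listed genes lost the call on their difference, including Irf7, H2-K1 and H2-D1.

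Same-numbered libraries correlated at −0.017 to 0.062 in their deviations from group means, and unlike-numbered ones at −0.059 to 0.081. With 3 libraries per group, shallow ones among them, this check cannot show whether same-numbered libraries shared a mouse or preparation. With a replicate block there were 49 opposite, 50 alike, 67 IL-4 only and 992 IFN-γ only genes, with 42 of the 50 opposite genes shared. No named or listed gene turned direction with a called difference in any alternative. In the shallow libraries a gene below about 16 normalized counts rests on under 3 reads.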
